A study of Mus musculus with 5 samples.

Results

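The protein-coding genes that flank Elmo2 on mouse chromosome 2 were examined in differentiated myoblasts, to describe how the neighbours of an edited locus were expressed in the knock-in cells. On GRCm38, Elmo2 occupies 165288031 to 165326479 of chromosome 2 and is read from the minus strand. The members are the genes annotated as protein-coding in GENCODE release M21 that start within 10 Mb of either end of Elmo2 (155288031 to 175326479) and reach 5 normalized counts in at least 1 sample. Elmo2 itself, Jph2, Tnnc2 and Atp5e were set aside by name. The table lists 246 protein-coding genes in the window, of which 70 stayed under the minimum, and 54232 genes in all, and 171 members were analysed. The members were thus chosen by their measured levels in these samples as well as by position. The lowest highest values inside the limit were 5.30 normalized counts (Mmp24 and Zbp1) and 5.38 (Mmp9), and the highest outside it were 4.97 (Nnat) and 4.48 (Gm20716).

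ELMO2 is a cytoplasmic scaffold that binds DOCK-family exchange factors and so takes part in activating the GTPase RAC during myoblast fusion. Elmo2EID/EID mice are homozygous for a point mutation in the inhibitory domain of ELMO2, introduced in all cells by homologous recombination, which favours the open form of the protein. The study describes its animals as of a mixed C57BL6 and 129SV background and lists the knock-in as a line crossed to FLP mice. Primary myoblasts were isolated with magnetic beads from leg muscle of WT (n = 3) and Elmo2EID/EID (n = 2) mice, and poly-A RNA was sequenced after 72 h in differentiation medium with horse serum. The cells carried no other allele or agent that the labels name. Genes that sit close to an edited allele are inherited together with it, so the mutation itself and any sequence linked to it cannot be told apart in this design. The genotype of the window was not measured here.

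The samples held 35021856 to 49381544 recovered reads, and 3 reads, taken as the floor, corresponded to 2.65 to 3.73 normalized counts. All 10 markers of differentiating myoblasts were well above this floor, with Des between 210096 and 232025 and Myog between 47286 and 53544 normalized counts. Markers of other cells were also present, some of them at high levels in every sample. Erbb3, of the Schwann cell list, had 15067 to 16916 normalized counts and Abcc9, of the pericyte list, 5144 to 7209, both above the myoblast marker Mymx at 1184 to 1965. The summed level of 12 endothelial markers was 969, 234 and 1009 in WT 1, 2 and 3 and 2478 and 3817 in Elmo2EID/EID 1 and 2. Of the 12, 11 were higher in both knock-in samples than in any WT sample, beside 2431 of the 14339 protein-coding genes tested. Egfl7 was so only narrowly, at 88.5 in Elmo2EID/EID 1 and 88.3 in WT 3. None was called with limma (beside 2.04% of protein-coding genes). At an unadjusted p under 0.05 there were 8, edgeR called 1 and DESeq2 called 4, beside 16.4%, 2.09% and 5.86%. The study describes primary cells as typically isolated from independent mice, but no label ties a sample to an animal of its own, so p-values measure the spread between these samples only. In bulk RNA, fewer cells of a type and less RNA per cell cannot be told apart.

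Along the 20 Mb window most genes differed little between the genotypes, and a small set stood out on both sides of Elmo2. Of the 171 members, 12 passed an adjusted p of 0.05 (limma on log2(normalized count + 1), Benjamini-Hochberg adjustment over 18156 genes), which is 7.02%, beside 2.04% of the 14339 protein-coding genes tested and 1.47% of the 950 on chromosome 2 outside the window. Tgm2, Gm20431, Cass4 and Rtf2 were higher in Elmo2EID/EID cells. These 4 make up 2.34% of the members, beside 0.676% of protein-coding genes called higher. Gm20431 reached the minimum in the knock-in samples only, which leaves 3 called higher and 11 called in all among the 158 members that reached it in both groups (6.96%, beside 2.04% of the 13751 protein-coding genes that did). Cep250, Epb41l1, D630003M21Rik, Slc2a10, Sulf2, Ptgis, Ptpn1 and Fam210b were lower. These 8 make up 4.68%, beside 1.37% called lower. The window was chosen for description with its share of calls known, so these shares carry no test.

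Leaving out 1 sample moved the log2 fold change of each of the 12 called members by less than 1.5 times and changed the direction of none, as for Ptpn1 (-0.950 to -0.845) and Epb41l1 (-0.594 to -0.553). The number of calls fell in these fits of 4 samples. It was 1, 4 and 5 members without WT 1, 2 or 3 (0.585%, 2.34% and 2.92%), beside 0.474%, 0.858% and 1.73% of protein-coding genes. The fits without a knock-in sample leave that group with 1, which is taken to vary like the WT samples. Without Elmo2EID/EID 1 the count was 3 (1.75%, beside 0.425%), namely Serinc3, Pkig and Rims4, none of which is among the 12. Without Elmo2EID/EID 2 limma called no member and few protein-coding genes in the whole table. With all samples, edgeR's quasi-likelihood test on the recovered reads called the same 12 members (2.09% of protein-coding genes called), and the DESeq2 Wald test called these and 8 more, 20 of the 165 members with an adjusted p (12.1%, beside 5.86% of protein-coding genes).

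Smaller differences were closer to their background. An unadjusted p under 0.05 was found for 41 members (24.0%, beside 16.4% of protein-coding genes), and the groups did not overlap for 64 (37.4%, beside 34.0%), 27 of them higher and 37 lower. The median log2 fold change of the members was -0.02 and of all protein-coding genes tested 0.01. The median size regardless of sign was 0.14, beside 0.13 for all protein-coding genes and 0.12 for those of chromosome 2 outside the window. For 111 of the 171 members the log2 fold change was smaller than 0.25 in either direction.

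**Figure D1:**
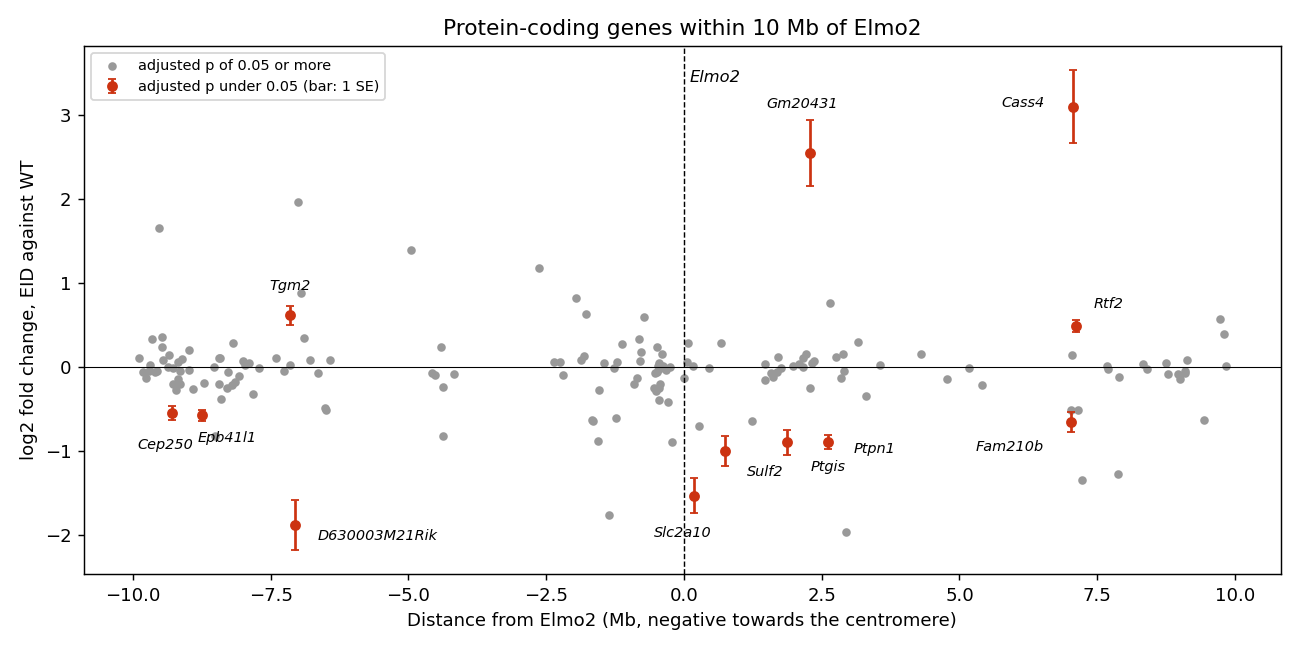
Each of the 171 members is a point, with its distance from Elmo2 in Mb on the x axis and its log2 fold change, Elmo2EID/EID (EID) against WT, on the y axis. Red points are the 12 called members with bars of 1 SE, and they lie on both sides of Elmo2, from 0.177 to 9.29 Mb away, with the largest log2 fold change among them at Cass4.

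The called members lay both near to and far from Elmo2. Their median distance from it was 7.04 Mb, and that of all members was 4.78 Mb. Within 1 Mb there were 2 called among 32 members (6.25%), within 3 Mb 5 of 75 (6.67%) and within 5 Mb 5 of 87 (5.75%), beside 7.02% of all members and 2.04% of protein-coding genes. The counts within 3 and 5 Mb include Gm20431, which reached the minimum in the knock-in only. On the centromeric side 4 of 107 members were called (3.74%), and on the telomeric side 8 of 64 (12.5%, Gm20431 among them), beside the same 2.04%. In bins of 2 Mb, none of the 38 members in the bin next to Elmo2 on the centromeric side was called with limma, against 3 of the 18 in the bin next to it on the telomeric side. Of these 38, 11 were at an unadjusted p under 0.05, 0 were called with edgeR and 4 with DESeq2, beside 16.4%, 2.09% and 5.86% of protein-coding genes. The bin from 6 to 8 Mb telomeric had 3 of 11 called and a median log2 fold change regardless of sign of 0.51, the highest of the 10 bins, and in the others this median was 0.08 to 0.24. With 4 to 41 members a bin, these are descriptions of small numbers.

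**Figure D2:**
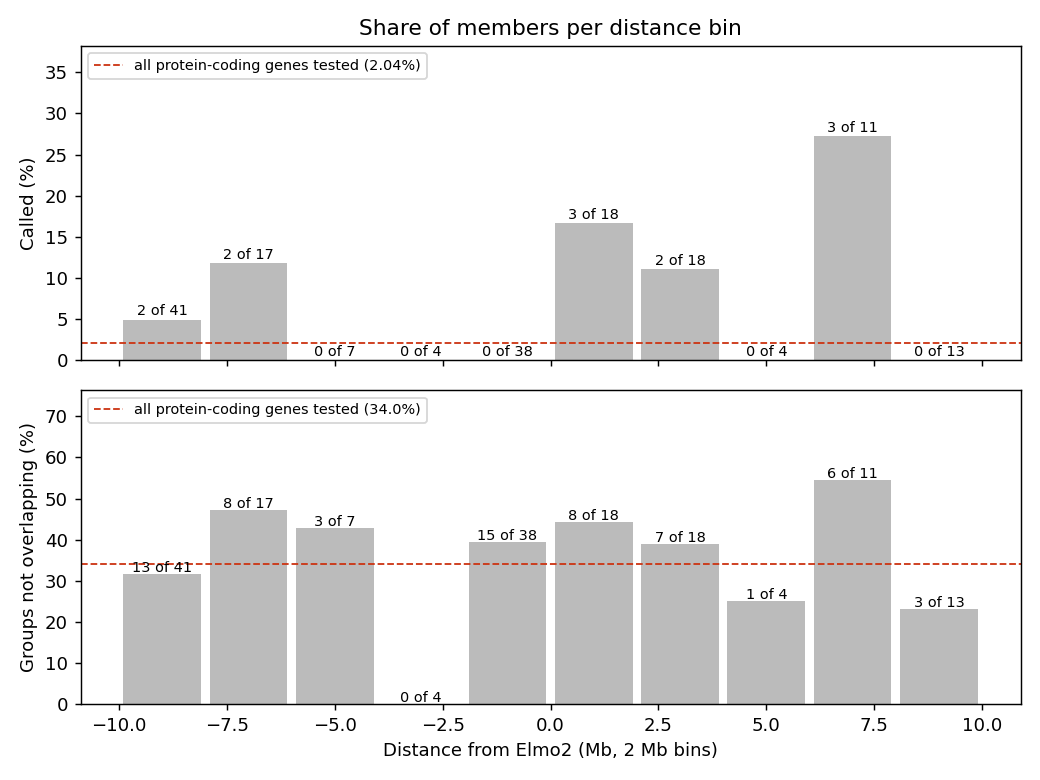
Bars give the share of members called (upper panel, percent) and the share whose groups did not overlap (lower panel, percent) in 2 Mb bins of distance from Elmo2, with the counts above the bars and a dashed line at the share among all protein-coding genes tested. Called members reach 3 of 11 in the bin from 6 to 8 Mb, and the share of members without overlap runs from 0.0% to 54.5% around its background of 34.0%.

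Apart from Slc2a10, given below, the better expressed genes nearest to Elmo2 showed nearly even levels. Slc35c2, which encodes a transporter family protein of the secretory pathway, lies 0.162 kb away and had 1060.2, 1080.2 and 1126 normalized counts in WT and 969 and 1018 in Elmo2EID/EID samples. The knock-in samples were both lower than every WT sample, by a log2 fold change of -0.13 ± 0.07 (SE) that did not pass (adjusted p = 0.459). Ncoa5, a nuclear receptor coactivator, had 1538 to 1692 counts in WT and 1608 and 1653 in the knock-in, and the groups overlapped. Zfp335 and Zfp334, both zinc finger proteins, Trp53rka, a kinase that modifies p53, and Zmynd8, a chromatin reader, also overlapped between the groups, with log2 fold changes of 0.01, 0.06, 0.02 and -0.01. Trp53rka has a near-identical copy in the window, Trp53rkb, so the split of its reads is uncertain.

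Other close neighbours were hardly expressed. Cd40, a costimulatory receptor, Slc12a5, a neuronal chloride transporter, Mmp9, a matrix protease, and Ocstamp, a fusion protein of osteoclasts, stayed at 11.2 normalized counts or less in each sample, and none was called. Eya2, a transcriptional coactivator of muscle development, had 42.4, 40.4 and 28.6 counts in WT and 15.2 and 32.3 in Elmo2EID/EID samples. These values overlapped between the groups.

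Slc2a10 was the called gene nearest to Elmo2. It encodes the glucose transporter family member GLUT10 and lies 0.177 Mb telomeric (chromosome 2, 165503787 to 165519917, plus strand). WT 1, 2 and 3 had 67.1, 68.4 and 72.1 normalized counts, and the knock-in samples had 24.1 and 22.4. Both groups were narrow and far apart, with a ratio of means of 0.336 and a log2 fold change of -1.53 ± 0.21 (SE, adjusted p = 0.02). With any 1 sample left out its log2 fold change stayed between -1.58 and -1.48, and its adjusted p in these fits of 4 samples lay between 0.0572 and 0.171. Trp53rka, the next gene on its centromeric side, was at 500.0 ± 35.8 in WT (SD, n = 3) and 505.9 ± 5.47 in Elmo2EID/EID (SD, n = 2).

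**Figure D3:**
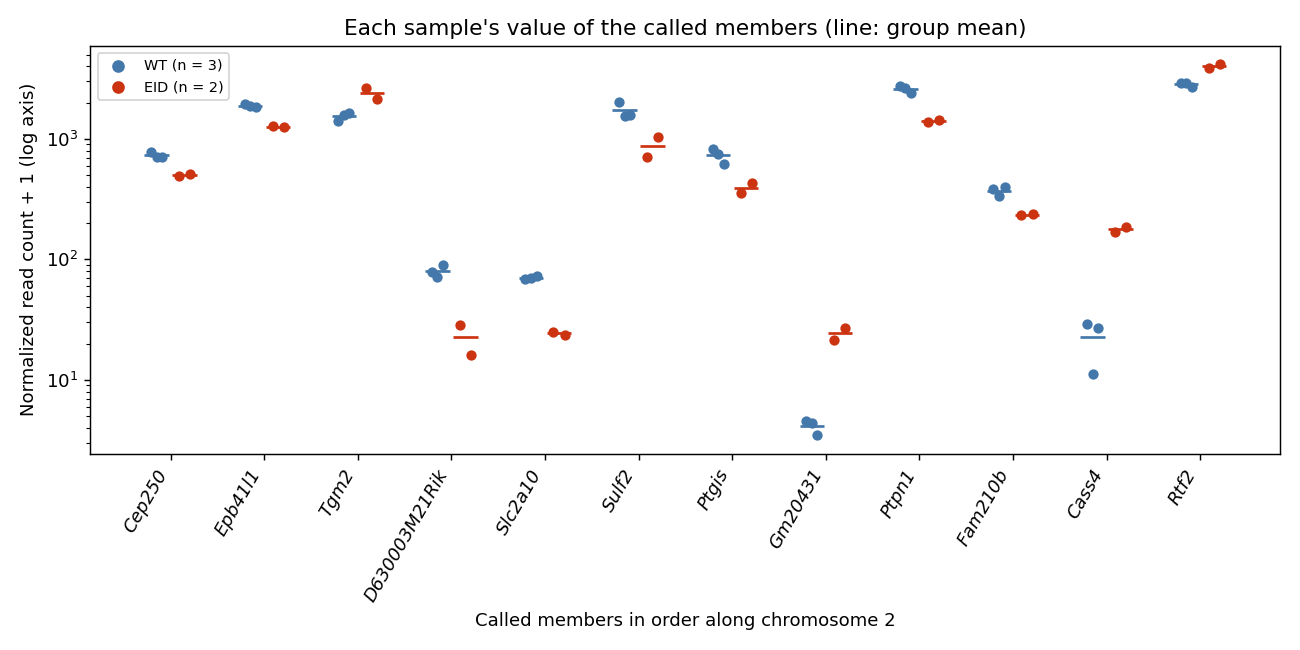
Normalized read counts + 1 on a log axis for the 12 called members in their order along chromosome 2, with 1 point per sample and a line at the group mean (WT blue, n = 3, and EID red, n = 2). The groups do not overlap for any of the 12, which for Gm20431 follows from the minimum, reached in the knock-in only, and among the others the widest separations are at Cass4, D630003M21Rik and Slc2a10.

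The 23 transcription and chromatin members gave no call with limma (5 at an unadjusted p under 0.05, 0 called with edgeR and 0 with DESeq2), beside 16.4%, 2.09% and 5.86% of protein-coding genes and 2.04% called with limma. Their median log2 fold change was -0.002, beside 0.01 over all protein-coding genes tested. The most abundant were Top1, the DNA topoisomerase, and Cebpb, a leucine zipper factor, and the values of the list ranged from -1.34 (Tfap2c, at 7.46 counts or less) to 0.82 (Tox2, an HMG-box protein), both genes being named after their values were seen. The Tox2 value rested on single knock-in samples, being 1.27 without Elmo2EID/EID 1 and 0.38 without Elmo2EID/EID 2.

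Of the 17 members that encode secreted factors, receptors and matrix proteins, Tgm2 was called higher, Sulf2 and Ptgis were called lower, and 14 did not pass with limma. An unadjusted p under 0.05 was found for 7 of the 17 (beside 16.4% of protein-coding genes), edgeR called 3 (beside 2.09%), and DESeq2 called 5 (beside 5.86%), with Procr and R3hdml added. Tgm2, the tissue transglutaminase that cross-links proteins, had 1418, 1570.4 and 1653 normalized counts in WT and 2619 and 2141 in Elmo2EID/EID samples, for a log2 fold change of 0.62 ± 0.11 (SE, adjusted p = 0.0432). Sulf2, a sulfatase that trims extracellular heparan sulfate, lies 0.747 Mb telomeric and had 2034, 1558 and 1579 counts in WT and 710.1 and 1030.1 in the knock-in. Its log2 fold change was -0.999 ± 0.18 (SE, adjusted p = 0.0483), close to the threshold. Ptgis, prostacyclin synthase, lies 1.87 Mb telomeric and had 821, 749 and 614 counts in WT and 353 and 426 in the knock-in, with a log2 fold change of -0.90 ± 0.15 (SE, adjusted p = 0.0374). For none of these 3 did the groups overlap. Tgm2 and Sulf2 lost their calls without any 1 of the 5 samples (adjusted p of 0.0638 to 0.214 and 0.0783 to 0.224). Ptgis kept its call only without WT 3, and without the others its adjusted p was at most 0.223.

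The list of cytoskeleton, adhesion and small GTPase genes had 18 members, of which Cass4 rose, Ptpn1 and Epb41l1 fell and 15 did not pass with limma (9 of the 18 were at an unadjusted p under 0.05, 3 were called with edgeR and 6 with DESeq2, beside 16.4%, 2.09% and 5.86% of protein-coding genes). Ptpn1 encodes the tyrosine phosphatase PTP1B, which acts on the insulin receptor among other substrates, and lies 2.61 Mb telomeric (167932057 to 167979385, plus strand). It had 2755, 2663 and 2380.5 normalized counts in WT and 1378 and 1424.5 in Elmo2EID/EID samples. Levels in the knock-in were thus close to each other and at 0.539 of the WT mean, for a log2 fold change of -0.89 ± 0.08 (SE, adjusted p = 0.00438). The call held without any 1 WT sample but not without Elmo2EID/EID 1 or 2 (adjusted p of 0.0707 and 0.085). Epb41l1 encodes protein 4.1N, which ties membrane proteins to the spectrin-actin network, and lies 8.74 Mb centromeric. It had 1938, 1881 and 1829.8 counts in WT and 1276 and 1252 in the knock-in, for a log2 fold change of -0.57 ± 0.07 (SE, adjusted p = 0.00866). Its adjusted p was 0.08, 0.118 and 0.0591 without Elmo2EID/EID 1, 2 or WT 1, and under 0.05 without WT 2 or 3.

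Cep250, called lower, was the 1 gene called with limma, edgeR or DESeq2 among 8 members for ubiquitin, mitosis and the cell cycle, beside 2.04%, 2.09% and 5.86% of protein-coding genes, and 4 of the 8 were at an unadjusted p under 0.05, beside 16.4%. It encodes a centrosomal linker protein, lies 9.29 Mb centromeric and had 776, 708 and 707 normalized counts in WT and 487 and 511 in Elmo2EID/EID samples, for a log2 fold change of -0.55 ± 0.09 (SE, adjusted p = 0.0345). With any 1 sample left out its adjusted p was 0.0619 to 0.211 and its log2 fold change -0.581 to -0.503. The 7 members of this list that did not pass include Aurka, the mitotic kinase Aurora A. The list's median log2 fold change was -0.26, beside 0.01 over all protein-coding genes tested, and its groups did not overlap for 5 of 8 members, beside 34.0% of all protein-coding genes.

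D630003M21Rik and Gm20431 carry no established function that could be given here. D630003M21Rik lies 7.06 Mb centromeric and had 77.8, 70.7 and 88.3 normalized counts in WT and 27.7 and 15.2 in Elmo2EID/EID samples, for a log2 fold change of -1.88 ± 0.30 (SE, adjusted p = 0.0337). Gm20431 lies 2.28 Mb telomeric and entered through the knock-in samples alone, since all 3 WT samples were below the minimum of 5. Its values were 3.53, 3.37 and 2.49 normalized counts in WT, 9 reads in all, and 20.570 and 25.998 in the knock-in, 52 reads in all. All of its annotated exon sequence is shared on the same strand with its neighbours Ube2v1 and Tmem189, so the assignment of these few reads is uncertain. Ube2v1, a ubiquitin-conjugating enzyme variant, had 84.1 to 85.8 counts in WT and 71.5 and 71.7 in the knock-in, and Tmem189, a membrane protein, had 4909 to 5451 counts in WT and 5538 and 5302 in the knock-in. Neither was called. D630003M21Rik was no longer called without any 1 sample (adjusted p of 0.0672 to 0.197), with a log2 fold change of -2.29 to -1.47. No p is given for Gm20431, since it reached the minimum in 1 group only.

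About 7 Mb telomeric of Elmo2, 3 called members stood within 0.1 Mb of each other and moved in different directions. From the centromeric end the order is Fam210b, Aurka, Cstf1, Cass4 and Rtf2. Fam210b, a mitochondrial membrane protein (172345565 to 172355749), had 383, 335 and 394 normalized counts in WT and 234 and 235 in Elmo2EID/EID samples, for a log2 fold change of -0.65 ± 0.12 (SE, adjusted p = 0.0431). Aurka, on the opposite strand, was lower in both knock-in samples, with 197, 199 and 157 counts in WT and 119.8 and 137 in the knock-in, and was not called (adjusted p = 0.214). Cstf1, a subunit of the mRNA cleavage stimulation factor, had 1571.5 to 1841 counts in WT and 1893 and 1821 in the knock-in, where the groups overlapped.

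Cass4 had the largest log2 fold change of the called members. It encodes a scaffold of the Cas family found at focal adhesions (172393794 to 172433757) and had 28.3, 10.1 and 26.1 normalized counts in WT and 169 and 185 in Elmo2EID/EID samples. The knock-in mean was 8.23 times the WT mean, with a log2 fold change of 3.11 ± 0.44 (SE, adjusted p = 0.0219). WT 2, the lowest sample for Cass4, was also the lowest for the summed endothelial markers, and the knock-in samples were highest for both. The 6 macrophage markers summed to 38.5 to 68.4 normalized counts in WT and 202 and 56.5 in the knock-in. Of these, Ptprc was at 2.68 or less and Adgre1 at 5.37 or less in every sample, Cd68 was at 17.4 to 20.3 in WT and 34.0 and 35.0 in the knock-in, and Lyz2 was at 134 in Elmo2EID/EID 1 and 4.48 to 32.5 in the others. None of the 6 was called with limma (1 at an unadjusted p under 0.05, 0 called with edgeR and 0 with DESeq2, beside 16.4%, 2.09% and 5.86% of protein-coding genes). The part of the endothelial and macrophage markers in this result was not tested. Without WT 2 the call held (adjusted p = 0.00811), and it was lost without Elmo2EID/EID 1 or 2 or WT 1 (0.174, 0.254 and 0.0506). Rtf2, which takes part in stalling and restart of replication forks, lies next to Cass4 (172440556 to 172469908). It had 2920.1, 2933 and 2696 counts in WT and 3874 and 4142 in the knock-in, for a log2 fold change of 0.49 ± 0.07 (SE, adjusted p = 0.0222). Fam210b lost its call without any 1 sample (adjusted p of 0.0649 to 0.283), and Rtf2 kept it only without WT 3 (0.0419). Without the other samples its adjusted p was at most 0.218.

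The sequences around the start sites of these 3 genes, and of Slc2a10 and Ptpn1, show what kind of promoter RefSeq places beside them. They span 250 bases before to 50 after the RefSeq start site, all 5 on the plus strand of chromosome 2 of GRCm38.p6. RefSeq start sites can differ from the GENCODE gene starts given above. The Ptpn1 window begins after the GENCODE start of that gene, and the Cass4 window ends before the GENCODE start of Cass4. RefSeq promoter entries were matched by symbol for 137 of the 171 members and for 9 of the 12 called. Tgm2, Ptgis and Gm20431 were not among them. Capitals mark E-boxes (CANNTG, the motif bound by myogenic regulators, which reads the same on both strands).
Slc2a10, chr2:165503647-165503946: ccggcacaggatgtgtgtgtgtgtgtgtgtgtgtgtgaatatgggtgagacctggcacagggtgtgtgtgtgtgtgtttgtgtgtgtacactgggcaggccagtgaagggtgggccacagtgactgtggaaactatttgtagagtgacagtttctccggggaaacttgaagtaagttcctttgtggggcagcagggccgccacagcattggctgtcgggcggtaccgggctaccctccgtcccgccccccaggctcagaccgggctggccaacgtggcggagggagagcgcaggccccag
Ptpn1, chr2:167932077-167932376: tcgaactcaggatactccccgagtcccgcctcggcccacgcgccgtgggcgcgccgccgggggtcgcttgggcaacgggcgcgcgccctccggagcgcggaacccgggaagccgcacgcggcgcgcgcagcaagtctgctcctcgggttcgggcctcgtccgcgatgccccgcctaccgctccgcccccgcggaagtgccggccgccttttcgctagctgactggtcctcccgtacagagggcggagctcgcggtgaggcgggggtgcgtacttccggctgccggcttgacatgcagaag
Fam210b, chr2:172345327-172345626: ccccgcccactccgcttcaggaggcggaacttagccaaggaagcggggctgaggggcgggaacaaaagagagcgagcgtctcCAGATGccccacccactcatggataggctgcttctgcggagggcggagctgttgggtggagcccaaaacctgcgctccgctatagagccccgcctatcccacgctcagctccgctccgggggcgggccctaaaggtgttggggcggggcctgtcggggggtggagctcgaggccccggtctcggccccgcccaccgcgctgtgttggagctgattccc
Cass4, chr2:172393394-172393693: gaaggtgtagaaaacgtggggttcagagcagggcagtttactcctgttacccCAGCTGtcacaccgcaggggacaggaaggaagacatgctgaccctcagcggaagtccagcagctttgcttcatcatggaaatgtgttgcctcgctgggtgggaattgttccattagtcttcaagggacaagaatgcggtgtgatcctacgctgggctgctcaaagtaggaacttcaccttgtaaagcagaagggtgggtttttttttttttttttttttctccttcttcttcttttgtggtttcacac
Rtf2, chr2:172440328-172440627: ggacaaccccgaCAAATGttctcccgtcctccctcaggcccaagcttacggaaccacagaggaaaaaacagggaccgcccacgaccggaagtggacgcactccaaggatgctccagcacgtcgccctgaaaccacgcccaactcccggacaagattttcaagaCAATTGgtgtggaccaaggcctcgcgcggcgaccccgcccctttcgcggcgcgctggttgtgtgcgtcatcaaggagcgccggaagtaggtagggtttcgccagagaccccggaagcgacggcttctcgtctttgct
The Ptpn1 window held 47 CpG dinucleotides and 74.0% G or C, and those of Rtf2 and Fam210b held 28 and 24 CpG, beside a median of 7 over all 32851 promoters. Cass4 and Slc2a10, whose transcripts were low in WT cells, had 6 and 12 CpG. An E-box stood once in Fam210b and in Cass4 and occurred 2 times in Rtf2, and 72.3% of all promoters held at least 1. These matches describe the letters of the windows and are not evidence of binding.

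**Figure D4:**
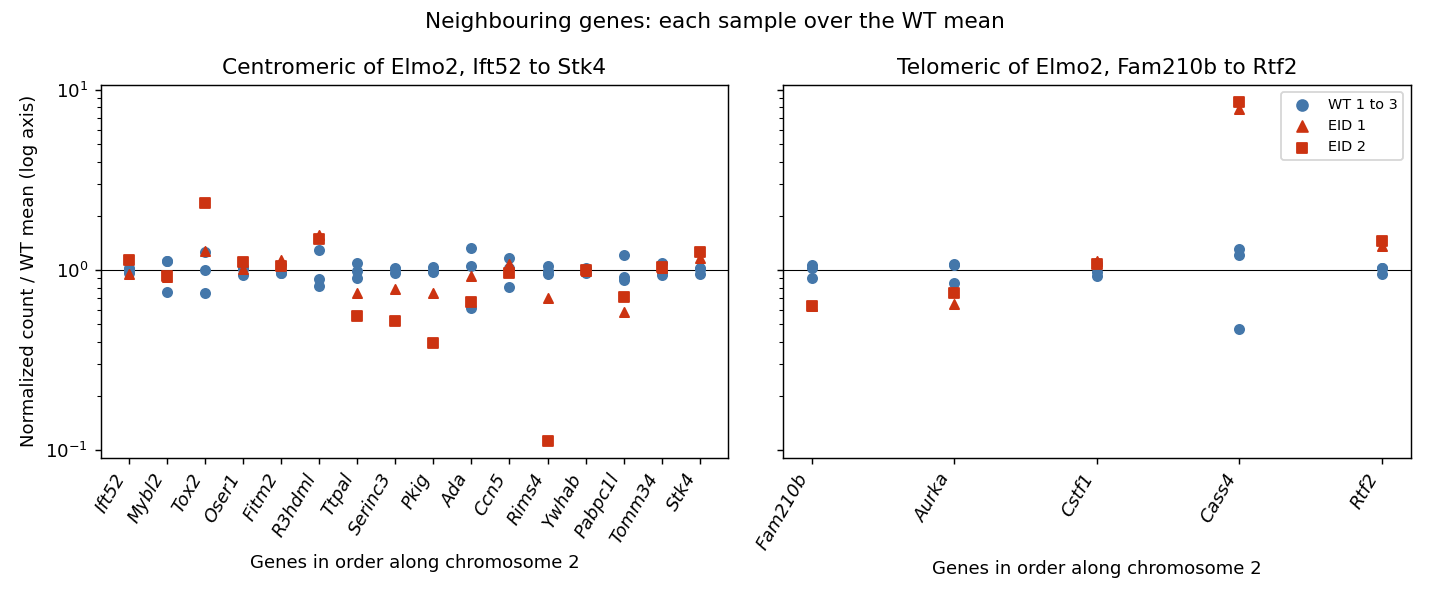
Each sample's normalized count divided by the WT mean of the gene, on a log axis, for neighbouring genes whose mean reached 20 normalized counts (WT circles, EID 1 triangles, EID 2 squares). On the left EID 2 falls below EID 1 at Ttpal, Serinc3, Pkig and Rims4, and on the right both knock-in samples move together at Fam210b, Cass4 and Rtf2.

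A second stretch, 1.37 to 1.67 Mb centromeric of Elmo2, had no call with limma, while DESeq2 called Ttpal and Serinc3 in it, and it set the knock-in samples apart from each other. Its genes were singled out after their values were seen. Serinc3, a multipass membrane protein and the most abundant member of the traffic list, had 18578, 17682 and 18801.5 normalized counts in WT, 14507 in Elmo2EID/EID 1 and 9535 in Elmo2EID/EID 2. Its neighbours on either side followed the same order. Ttpal, of the tocopherol transfer protein family, had 1553, 1724 and 1425 counts in WT and 1175 and 869.6 in the knock-in, and Pkig, an inhibitor of protein kinase A, had 10510.5, 11138 and 10403 and then 8014 and 4233. Rims4, of a family of presynaptic proteins, had 86.6, 83.0 and 92.0 counts in WT and 60.8 and 9.86 in the knock-in. Relative to the WT mean, Elmo2EID/EID 1 was at 75.0%, 79.0%, 75.0% and 69.7% and Elmo2EID/EID 2 at 55.5%, 52.0%, 39.6% and 11.3% for Ttpal, Serinc3, Pkig and Rims4.

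For Serinc3 and Pkig this gap between the knock-in samples was wide compared with other genes. Over the 10794 protein-coding genes whose mean reached 100 normalized counts, the median log2 gap between Elmo2EID/EID 1 and 2, regardless of sign, was 0.11 and the 95th percentile 0.51. Serinc3 and Pkig had gaps of -0.61 and -0.92, beyond that percentile, and Ttpal had -0.43, inside it. The mean of Rims4 was under 100, so it is not among these genes. In all, 7 of the 127 members at that level (5.51%) lay beyond the 95th percentile, the others being Procr, Myl9, Ptprt, Tox2 and Sulf2 (Ptprt too was named after its values were seen), a share close to the one that the percentile itself sets. The log2 fold changes over both samples were -0.63 ± 0.14 for Ttpal, -0.64 ± 0.16 for Serinc3, -0.87 ± 0.24 for Pkig and -1.77 ± 0.65 for Rims4 (SE). None passed with limma (adjusted p of 0.088, 0.115, 0.139 and 0.269). Without Elmo2EID/EID 1, Serinc3, Pkig and Rims4 had adjusted p of 0.0357, 0.0193 and 0.0362. Ada, adenosine deaminase, and Ccn5, a secreted matricellular protein, lie between Pkig and Rims4, and both overlapped between the groups, with 22.4 to 48.6 and 169 to 247 counts in WT and 24.2 to 34.0 and 204 to 228 in the knock-in. Ywhab, a 14-3-3 protein just beyond Rims4, had a log2 fold change of -0.01.

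The 8 members called with the DESeq2 Wald test only, also named after their values were seen, were Ttpal and Serinc3 of this stretch and Procr, Myl9, Src, R3hdml, Stk4 and Atp9a. Procr, the endothelial protein C receptor, had 86.6, 26.9 and 82.0 normalized counts in WT and 140.4 and 244 in Elmo2EID/EID samples. This order of the samples is close to that of the endothelial marker sum given above, with WT 2 lowest and Elmo2EID/EID 2 highest, and its part in the result was not tested. Myl9, a regulatory myosin light chain of smooth muscle and non-muscle cells, had 2181, 2144 and 1719 counts in WT and 1495 and 866 in the knock-in. Of the 5 pericyte markers, Rgs5 and Notch3 were called lower (log2 fold changes of -2.97 and -1.55), Kcnj8 was at the floor in every sample, and Abcc9 did not pass. Cspg4 did not pass either, and both knock-in samples (2746.5 and 2676) were above the WT samples (1820.5 to 2545.5). The summed pericyte level was 10147 to 11897 in WT and 9220 and 9244.5 in the knock-in, and its part in the Myl9 values was not tested.

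The other 4 members called with DESeq2 only were 2 lower and 2 higher in the knock-in. Src, the founding Src-family tyrosine kinase, had 993 to 1035 normalized counts in WT and 770.0 and 844 in Elmo2EID/EID samples, a limma log2 fold change of -0.32 ± 0.08 (SE, limma adjusted p = 0.106). Atp9a, a lipid flippase of endosomes, had 1882 to 2146 and then 1612.5 and 1548 counts. Stk4, a kinase of the Hippo pathway, was higher, with 2780 to 3015 counts in WT and 3416 and 3672 in the knock-in. R3hdml, a predicted secreted protein 1.79 Mb centromeric, was also higher, with 957 to 1505 and 1738 and 1834 counts. Without WT 2, R3hdml passed the limma test (adjusted p = 0.0192).

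In the remaining functional groups, calls are to be read beside 2.04% of protein-coding genes called with limma, 2.09% with edgeR, 5.86% with DESeq2 and 16.4% at an unadjusted p under 0.05. None of the 18 members for RNA processing and export was called with limma (1 at an unadjusted p under 0.05, 0 with edgeR and 0 with DESeq2), with a median log2 fold change of 0.04 and the groups apart for 8 (beside 34.0% of all protein-coding genes), and their most abundant members, Rbm38 and Rbm39, had log2 fold changes of -0.02 and 0.10. None of the 15 members for membrane traffic, lysosome and glycosylation was called with limma (5 at an unadjusted p under 0.05, 0 with edgeR and 2 with DESeq2), with a median of -0.02, and Trpc4ap, a ubiquitin ligase adaptor placed in that list, was at -0.06. Of the 17 members for mitochondria and metabolism, Slc2a10 and Fam210b were called lower and 15 did not pass with limma (3 at an unadjusted p under 0.05, 2 called with edgeR and 2 with DESeq2), with a median of -0.05. Another 53 members were in no list, and of these D630003M21Rik, Gm20431 and Rtf2 were called with limma and edgeR, and Ttpal as well with DESeq2 (7 at an unadjusted p under 0.05). Beside these medians, that of all protein-coding genes tested was 0.01.

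Of the imprinted genes looked for, Gnas and Blcap were measured, and for both the groups overlapped. Gnas encodes the stimulatory G protein alpha subunit in a complex locus with overlapping transcripts, and it was the most abundant member per kb of longest transcript, at 29828 normalized counts per kb averaged over the 5 samples. It had 123143, 121761 and 115796 normalized counts in WT and 110267 and 117680 in Elmo2EID/EID samples (log2 fold change of -0.08 ± 0.08, SE). Blcap, a small membrane protein, had 715 to 761 and then 774 and 682 counts. Trp53inp2, a regulator of autophagy, and Dlgap4, a scaffold protein, were next in level per kb, at 6966 and 5752, and their log2 fold changes were 0.11 and -0.0034. Nnat and L3mbtl1, the other imprinted genes looked for, did not reach the minimum.

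Most members reached the minimum in both groups. Of the 171 members, 158 reached 5 normalized counts in both groups, 10 in WT samples only and 3 in Elmo2EID/EID samples only. Of these 13, Gm20431 was the 1 called. Of the 70 genes of the window under the minimum, 41 had 0 in every sample. The window also held 54 tested genes that are not protein-coding, of which 2 were called with limma (3.70%, beside 2.91% of all 3817 such genes tested). Gm14287, 1 of these 2, reached the minimum in the knock-in samples only, so this share rests partly on how it entered.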

How the data were processed

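The samples were WT (n = 3) and Elmo2EID/EID (n = 2) primary myoblasts at 72 h of differentiation, grouped by their labels, and replicates differed by more than sampling noise. Per the study's methods and the submitters' processing notes, read quality was checked with FastQC 0.11.5, reads were aligned to GRCm38 with STAR 2.5.1b, and uniquely mapped read pairs were assigned to genes with featureCounts 1.4.6 in its reverse-stranded setting. Each deposited value is a signal, namely reads scaled by a DESeq2 1.34.0 size factor, so values are comparable between samples but are not per length. Dividing by the value of 1 read gave whole reads for 100.0% of values (within 0.01 of a read), with totals of 35021856 to 49381544. Unique mapping can lower counts of genes with near-identical copies.

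Fold changes compare Elmo2EID/EID with WT as log2(normalized count + 1), which understates changes of low genes. The main test was limma 3.58.1 (lmFit and eBayes with a trend, R 4.3.3), two-sided, over the 18156 genes that reached 5 normalized counts in any sample, adjusted after Benjamini-Hochberg with a threshold of 0.05. On the recovered reads, edgeR 4.0.16 (quasi-likelihood) called 12 members and DESeq2 1.42.0 called 20. These fits were also run on simulated counts with large changes in genes above a minimum level and a fixed spread. That run does not cover the smaller changes reported here. Other alternatives were pseudocounts, filters, scalings, limma without the trend, protein-coding genes only, a replicate block and omission of each sample.

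Names, positions and biotypes came from GENCODE M21, which matched 54165 of 54232 identifiers, and promoters from RefSeq (GRCm38.p6). Genes were named by a rule: every called member, the 6 nearest on each side of Elmo2, up to 10 called by edgeR and DESeq2 alone (there were none), the 3 most abundant per kb, the imprinted genes, and up to 3 from each functional list. Other genes are marked as named after their values were seen, stand beside a named gene by position or share its sequence, or mark the limit of the minimum. The members and lists were chosen with earlier results of these data known. Counts of members leave out 1 gene of the window that is not reported here. Tables and figures used Python 3.11.15, pandas 2.3.3, scipy 1.17.1 and matplotlib 3.10.9.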

Additional observations from a re-analysis of the deposited data

How the results depend on the processing

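Of 12 members called (4 higher, 8 lower), the count stayed within 1.5 times under 7 of the 17 alternatives. It was 20 with DESeq2 (7 higher, 13 lower). For limma without the trend it was 2, Slc2a10 lower and Gm20431 higher, the latter having reached the minimum in the knock-in only. It was 3 without a filter on low values (0 and 3) and 6 when protein-coding genes alone were tested (3 higher, Gm20431 among them, and 3 lower). These are 1.17%, 1.75% and 3.51% of members, beside 0.467%, 0.572% and 1.12% of protein-coding genes. Without 1 sample it was 0 to 5 (0 to 2 higher, 0 to 3 lower). The replicate number as a block gave 3 members (2 higher, 1 lower; 1.75%, beside 1.09% of protein-coding genes), Tox2 (named after its values were seen), Ptpn1 and Cass4. The labels give same-numbered samples a shared number and state no pairing. The WT 1 minus WT 2 difference correlated at -0.238 with its knock-in counterpart across 13769 genes. Such a correlation cannot decide whether samples were handled in pairs. Where a named member was called in the main setting or an alternative, its direction was the same in both. None of the 12 kept its call under all 17, and Ptpn1 came closest, with 14. The causes were not tested. Across scalings the median log2 fold change of all genes tested spanned 0.0135, from -0.0026 to 0.0109. With 3 and 2 samples a group, the precision for small fold changes and for genes near the floor is limited.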

Other observations

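The 2 called genes of the window that are not protein-coding were Gm14221 and Gm14287. Gm14221, a lincRNA 4.67 Mb centromeric of Elmo2 (160568379 to 160619971, minus strand), had 577, 762 and 526 normalized counts in WT and 1211 and 1651 in Elmo2EID/EID samples, for a log2 fold change of 1.20 ± 0.19 (SE, adjusted p = 0.0332 by limma). Both knock-in samples were above every WT sample.

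Gm14287, a processed pseudogene of 117 bases 7.76 Mb centromeric of Elmo2 (157528869 to 157528985, minus strand), had 1.77, 0 and 2.49 normalized counts in WT, at or under the floor of 3 reads, and 99.3 and 93.2 in Elmo2EID/EID samples. It reached the minimum of 5 in the knock-in samples only, so no p is given. Against the floor of 2.65 to 3.73 normalized counts per WT sample, the knock-in mean of 96.3 was at least 25.8-fold higher. Reads of a pseudogene can be shared with its parent gene, and the parent was not looked for here.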
